A study of Danio rerio with 9 samples.

Results

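Zebrafish embryos injected against either the hypusination enzyme or its substrate were set, as 1 side of 6 libraries, against 3 libraries of control embryos, to ask which transcripts were shifted the same way by both knockdowns. The 6 knockdown libraries were 3 from whole embryos injected with a dhps morpholino and 3 from whole embryos injected with an eif5a1/2 morpholino. The other side was 3 libraries from whole embryos injected with a control morpholino. RNA was taken after 24 hours, polyA-selected and sequenced. All 9 libraries of the series entered, and 17031 of the 24614 genes in the table passed the filter on low counts and were tested. A morpholino is a synthetic antisense oligomer that blocks translation or splicing of its target, and every group, control included, carried one. The labels give no strain, morpholino sequence or dose, and nothing says how many embryos were pooled or whether replicates came from separate clutches. The p-values therefore measure the spread between these libraries, which may be technical.

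Deoxyhypusine synthase, the product of dhps, takes an aminobutyl group from spermidine and attaches it to a single lysine of the translation factor eIF5A, and deoxyhypusine hydroxylase, the product of dohh, completes the unusual amino acid hypusine. Hypusinated eIF5A binds stalled ribosomes and helps peptide bonds form at difficult sequences such as runs of proline, and it also takes part in translation termination. Loss of deoxyhypusine synthase leaves eIF5A unmodified, whereas loss of eIF5A removes the protein in both forms.

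The libraries held 15952644 to 17482536 reads assigned to genes. On the first principal component, which carried 62.6% of the variance of log2 CPM (read counts scaled to a common library size), the libraries did not fall by group. The dhps libraries scored 27.3 to 58.7, the eif5a1/2 libraries scored −55.6, 59.18 and −21.4, and the controls scored −54.6, 24.4 and −72.6. Thus eif5a1/2 replicate 2 and control replicate 2 stood apart from their own groups, beside the dhps libraries. The same 5 libraries, and none of the other 4, carried relatively more reads on long transcripts. All 23 of the defining markers of embryonic tissues found in the table were above 0 TPM in every library.

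No gene passed the pooled comparison at an adjusted p of 0.05 (0 of 17031 genes, 0.000%, edgeR's quasi-likelihood test with Benjamini-Hochberg adjustment). Without adjustment, 1832 genes had a p under 0.05, 850 of them higher in the knockdown libraries (4.99% of the genes tested) and 982 lower (5.77%). The count passing was also 0 with limma-voom, whereas DESeq2 passed 118 genes, 46 higher and 72 lower. A fit that kept dhps, eif5a1/2 and control as 3 groups and tested the mean of both knockdowns passed 25 genes (0.147%), 12 higher and 13 lower. That fit measures spread within each knockdown, while the pooled fit also counts the distance between the knockdowns as spread. The count depended on single libraries. It was 4 without control replicate 1 or control replicate 3, 5, 13 and 6 without dhps replicates 1, 2 and 3, 7 without eif5a1/2 replicate 3 and 43 without eif5a1/2 replicate 2. Without both control 2 and eif5a1/2 2, an omission chosen after seeing the data, it was 2892. The pooled fit itself passed 0 genes under each of these omissions.

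A second description needs no model. The CPM of all 6 knockdown libraries lay above all 3 controls for 369 genes (2.17%) and below all 3 controls for 482 genes (2.83%). Of these 851 genes, 686 also had an unadjusted p under 0.05. The genes described next were chosen by a rule that used both criteria, so their separation from the controls is part of the choice and is given as a description. None of them passed the pooled test.

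The gene closest to the threshold was slc25a4, which encodes a mitochondrial carrier that exchanges ADP for ATP across the inner membrane. It had 7.49, 9.66 and 6.91 CPM in dhps embryos and 6.50, 6.19 and 8.85 CPM in eif5a1/2 embryos, against 17.2, 17.1 and 20.2 CPM in control embryos. The highest knockdown library was well under the lowest control, and the knockdowns covered the same range. Its pooled log2 fold change was −1.26 ± 0.15 (SE), with an adjusted p of 0.0962 by edgeR. Against control it fell by 1.18 on the log2 scale in dhps embryos (adjusted p = 0.0140, edgeR) and by 1.34 in eif5a1/2 embryos (adjusted p = 0.0291, edgeR, or 0.0753 with the replicate number as a block). The mean of both was lower by the 3-group fit (adjusted p = 0.0154, edgeR), and the knockdowns were not separated from each other (log2 difference −0.16, adjusted p = 0.737, edgeR). The separation also held in the deposited TPM, where dhps embryos had 5.11 to 6.89, eif5a1/2 embryos 2.84 to 5.37 and control embryos 7.59 to 11.9. Its far more abundant paralog slc25a5, at 2705 to 3706 TPM over the 9 libraries, had a pooled log2 fold change of −0.36 (adjusted p = 0.488, edgeR). Mean CPM over the 9 libraries was 11.1 for slc25a4 and 4742 for slc25a5. How the counting divided reads between these paralogs is not stated in the sources used here, which leaves the slc25a4 value uncertain.

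Among genes higher in both knockdowns, pck2 had the smallest p. It encodes mitochondrial phosphoenolpyruvate carboxykinase, which turns oxaloacetate into phosphoenolpyruvate. It had 259, 263 and 275 CPM in dhps embryos and 277, 214 and 218 CPM in eif5a1/2 embryos, against 143, 138 and 133 CPM in control embryos. All 6 knockdown libraries were above every control, and the 3 controls were close together. The pooled log2 fold change was 0.86 ± 0.13 (SE; adjusted p = 0.218, edgeR). It rose by 0.94 on the log2 scale in dhps embryos (adjusted p = 0.00951, edgeR), while the 0.77 of eif5a1/2 embryos missed the threshold (adjusted p = 0.0774, edgeR). The mean of both passed in the 3-group fit (adjusted p = 0.0323, edgeR). The cytosolic paralog pck1 had a pooled log2 fold change of −0.05, with −0.64 in dhps embryos and 0.37 in eif5a1/2 embryos.

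The gene akt1s1, whose product (PRAS40) restrains the growth-promoting kinase complex mTORC1, had 108, 128 and 133 CPM in dhps embryos and 96.8, 113 and 107 CPM in eif5a1/2 embryos, against 67.3, 70.7 and 65.5 CPM in control embryos. Its pooled log2 fold change was 0.75 ± 0.12 (SE), made up of 0.86 in dhps embryos and 0.64 in eif5a1/2 embryos. The gene osbpl10b, of the oxysterol-binding family of lipid transfer proteins, had 36.5, 32.4 and 38.8 CPM in dhps embryos and 35.0, 37.7 and 35.8 CPM in eif5a1/2 embryos, against 21.8, 23.9 and 23.7 CPM in control embryos. Its log2 fold changes were nearly equal, 0.63 in dhps embryos and 0.65 in eif5a1/2 embryos. The mean of both passed for each of these 2 genes in the 3-group fit (adjusted p = 0.0427 for both, edgeR), and neither differed between the knockdowns at the threshold.

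Chaperone genes and a helicase gene followed. The cytosolic Hsp90 chaperone gene hsp90aa1.2 had 62.7, 79.2 and 67.2 CPM in dhps embryos and 65.7, 81.3 and 65.3 CPM in eif5a1/2 embryos, against 40.8, 37.7 and 48.2 CPM in control embryos. Both knockdowns were above the controls by similar amounts, with log2 fold changes of 0.72 in dhps embryos and 0.75 in eif5a1/2 embryos. Neither value passed (adjusted p = 0.0511 in dhps embryos and 0.126 in eif5a1/2 embryos, edgeR), nor did the mean of both (adjusted p = 0.0660, edgeR). The related genes hsp90aa1.1 and hsp90ab1 had pooled values of 0.07 and −0.23, also not past the threshold. The co-chaperone gene bag5, which acts with Hsp70, had a pooled log2 fold change of 0.81 ± 0.15 (SE). The gene ercc3, for the XPB helicase of transcription factor TFIIH, had 0.80 ± 0.14 (SE), with 0.72 in dhps embryos and 0.89 in eif5a1/2 embryos. With edgeR, bag5 and ercc3 passed in neither knockdown against control and not for the mean of both. The Hsp90 paralogs are close in sequence, and the sources used here do not say how the counting divided reads between them.

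The remaining 6 genes of the higher group were the zinc importer slc39a1, the sulfotransferase sult3st2, the secreted angiopoietin-like angptl6, the leucine zipper gene lzts2b, the acyltransferase mogat2 and the flavin monooxygenase fmo5. Their pooled log2 fold changes ran from 0.55 (mogat2) to 2.26 (sult3st2). The value of sult3st2 rests on few reads: 2.28, 2.13 and 2.41 CPM in dhps embryos and 2.32, 0.891 and 1.76 CPM in eif5a1/2 embryos, against 0.286, 0.577 and 0.311 CPM in control embryos. In both knockdowns against control all 6 were positive, and slc39a1, sult3st2, angptl6, lzts2b and fmo5 passed in dhps embryos while none passed in eif5a1/2 embryos. Of the 12 higher genes, 11 stayed separate when scaled by library totals alone, and 7 were separate in the deposited TPM.

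**Figure D1:**
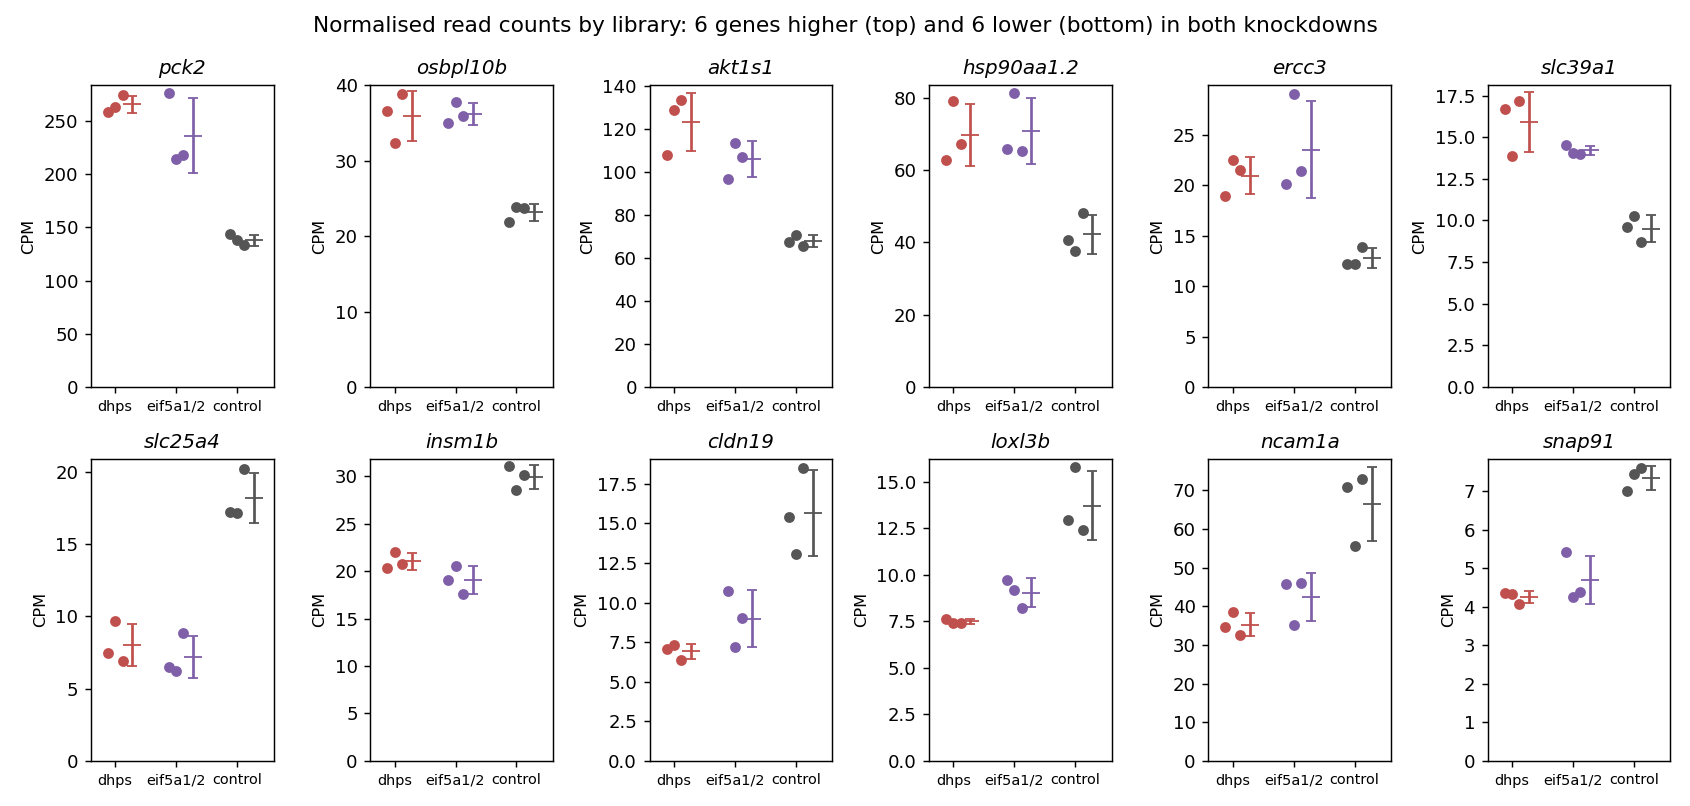
Normalised read counts (CPM, axis from 0) of 6 genes higher and 6 genes lower in both knockdowns, by library; points are libraries of dhps, eif5a1/2 and control embryos, and the bar beside each group is its mean ± SD (n = 3 each). In each panel the 6 knockdown libraries do not overlap the 3 controls, as the choice of genes required; slc25a4, among the lower genes, had 6.19 to 9.66 CPM in the knockdowns against 17.1 to 20.2 CPM in controls.

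Among genes lower in both knockdowns, several belong to the nervous system. The gene insm1b, for a zinc finger transcription factor of differentiating neurons and endocrine cells, had 20.3, 22.0 and 20.8 CPM in dhps embryos and 19.0, 20.5 and 17.6 CPM in eif5a1/2 embryos, against 31.0, 28.6 and 30.1 CPM in control embryos. In CPM the 3 groups were each tight, and the knockdowns overlapped each other but not the controls. Its pooled log2 fold change was −0.58 ± 0.096 (SE; adjusted p = 0.218, edgeR). In dhps embryos it fell by 0.51 on the log2 scale (adjusted p = 0.0451, edgeR), in eif5a1/2 embryos the value was −0.65 (adjusted p = 0.0548, edgeR), and the mean of both was lower in the 3-group fit (adjusted p = 0.0448, edgeR, or 0.0508 with a robust estimate of the spread). Its paralog insm1a had a pooled log2 fold change of 0.01. Under library totals alone and in the deposited TPM, insm1b was not separate from the controls. In TPM it had 9.11 to 9.79 in dhps embryos and 4.91 to 10.55 in eif5a1/2 embryos, against 6.84 to 11.78 in control embryos.

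The gene ncam1a, for a neural cell adhesion molecule, had 34.6, 38.6 and 32.6 CPM in dhps embryos and 45.9, 35.3 and 46.1 CPM in eif5a1/2 embryos, against 71.0, 55.5 and 72.9 CPM in control embryos. The gene snap91, whose product assembles clathrin at synapses, had 4.37, 4.32 and 4.08 CPM in dhps embryos and 5.41, 4.27 and 4.39 CPM in eif5a1/2 embryos, against 7.01, 7.44 and 7.61 CPM in control embryos. Both passed in dhps embryos, ncam1a with a log2 fold change of −0.91 (adjusted p = 0.0223, edgeR) and snap91 with −0.79 (adjusted p = 0.0400, edgeR). In eif5a1/2 embryos both had −0.65, which did not pass. The proneural transcription factor gene neurog1 had 24.9, 23.3 and 28.4 CPM in dhps embryos and 28.2, 24.7 and 27.3 CPM in eif5a1/2 embryos, against 38.9, 33.3 and 47.8 CPM in control embryos. The homeobox gene onecut1, active in early neurons and in liver and pancreas, had a pooled log2 fold change of −0.60 ± 0.12 (SE), and dync1i1, a dynein subunit gene prominent in neurons, had −0.51 ± 0.10 (SE).

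The other lower genes had varied roles. The tight junction gene cldn19 had 7.05, 7.31 and 6.39 CPM in dhps embryos and 10.8, 7.17 and 9.04 CPM in eif5a1/2 embryos, against 15.4, 13.1 and 18.5 CPM in control embryos. It fell by 1.17 in dhps embryos (adjusted p = 0.0154, edgeR), and the −0.80 of eif5a1/2 embryos did not pass (adjusted p = 0.177, edgeR). The gene loxl3b, of the lysyl oxidase family that crosslinks extracellular matrix, had 7.64, 7.42 and 7.43 CPM in dhps embryos and 9.75, 9.19 and 8.22 CPM in eif5a1/2 embryos, against 12.9, 15.8 and 12.4 CPM in control embryos. Its mean of both passed in the 3-group fit (adjusted p = 0.0496, edgeR). The ubiquitin ligase adaptor gene klhdc2 had a pooled log2 fold change of −0.73. A pair of membrane-spanning 4A genes from 1 tandem family were also lower, ms4a17a.11 at −0.88 and ms4a17a.7 at −1.07, and reads shared between family members make both uncertain. Of the 12 lower genes, 8 stayed separate from the controls under library totals alone, and slc25a4 and cldn19 were the 2 that were separate in the deposited TPM.

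Of the 25 genes that passed for the mean of both knockdowns in the 3-group fit, 9 had all 6 libraries on one side of the controls and did not pass between the knockdowns. Higher in this group of 9 were pck2, osbpl10b and akt1s1. Lower were slc25a4, insm1b, loxl3b, tnrc6c2, LOC100537277 and si:ch211-251b21.1. The gene tnrc6c2, of the GW182 family that acts in silencing by small RNAs, had 13, 13.9 and 11.8 CPM in dhps embryos and 18.8, 18.5 and 18.8 CPM in eif5a1/2 embryos, against 25.2, 26 and 31.2 CPM in control embryos. The eif5a1/2 libraries lay between the dhps libraries and the controls without touching either, and the difference between knockdowns missed the threshold (log2 0.54, adjusted p = 0.0565, edgeR). When each of the 9 libraries was left out in turn, slc25a4 passed in 5 of the 9 fits, si:ch211-251b21.1 in 5, tnrc6c2 in 4, pck2, akt1s1 and LOC100537277 in 2 each, and osbpl10b, insm1b and loxl3b in 1 each.

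The other 16 of the 25 differed between eif5a1/2 and dhps embryos, so the size of their mean over both knockdowns describes neither. The direction was often shared. Of the 25, 19 had all 6 knockdown libraries on one side of the controls, and 2 had opposite signs in the knockdowns. Against control, 20 of the 25 passed in dhps embryos and 8 in eif5a1/2 embryos, and none of the 25 passed in neither. The gene ppox, for protoporphyrinogen oxidase of heme synthesis, had 12.2, 13 and 10.1 CPM in dhps embryos and 2.55, 2.77 and 1.95 CPM in eif5a1/2 embryos, against 17.7, 15.3 and 16.3 CPM in control embryos. The eif5a1/2 libraries were far below both other groups, and the log2 fold change was −2.75 in eif5a1/2 embryos and −0.49 in dhps embryos. The gene ace, for angiotensin-converting enzyme, had 31.2, 28.9 and 32.7 CPM in dhps embryos and 5.72, 4.78 and 4.65 CPM in eif5a1/2 embryos, against 6.29, 6.61 and 8.23 CPM in control embryos. Its knockdowns lay on opposite sides of the controls.

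The fold changes of gnmt, for glycine N-methyltransferase, also had opposite signs, with 3.28, 2.4 and 3.35 CPM in dhps embryos and 19.6, 18.6 and 20.8 CPM in eif5a1/2 embryos, against 3.86, 3.98 and 3.18 CPM in control embryos. The eif5a1/2 libraries stood alone here, while the dhps libraries overlapped the controls. The proneural gene ascl1b had 13.6, 14.4 and 14.1 CPM in dhps embryos and 24.1, 23.8 and 25.7 CPM in eif5a1/2 embryos, against 32.5, 27.6 and 33.4 CPM in control embryos. Both knockdowns were below the controls, and the dhps libraries were further below (log2 difference of eif5a1/2 minus dhps 0.80, adjusted p = 0.00645, edgeR). The membrane protein gene itm2ba had 35.4, 43.4 and 40.4 CPM in dhps embryos and 97.2, 93.4 and 91.5 CPM in eif5a1/2 embryos, against 25.3, 28.4 and 27.4 CPM in control embryos, so both were above the controls and the eif5a1/2 libraries further. It passed against control in dhps embryos (log2 0.56, adjusted p = 0.0472, edgeR) and in eif5a1/2 embryos (log2 1.80, adjusted p = 0.000188, edgeR). So did si:ch211-210c8.6, with 0.65 (adjusted p = 0.0309, edgeR) and 1.61 (adjusted p = 0.000481, edgeR). Both genes were separate from the controls under library totals alone and in TPM. Leaving out each library in turn, the mean of both passed in 8 of 9 fits for itm2ba and 7 for si:ch211-210c8.6.

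The protocadherin gene pcdh1a3 had 1.19, 3.04 and 0.995 CPM in dhps embryos, 0 CPM in each eif5a1/2 library, and 3.43, 5.77 and 2.64 CPM in control embryos. The 3 eif5a1/2 libraries held 0 reads of it together, the dhps libraries 100 and the controls 192. Taking a floor of 3 counts over the eif5a1/2 group (0.0598 CPM), it was at least 66.0-fold lower there than in controls. Clustered protocadherins share much sequence, which makes the value uncertain.

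**Figure D2:**
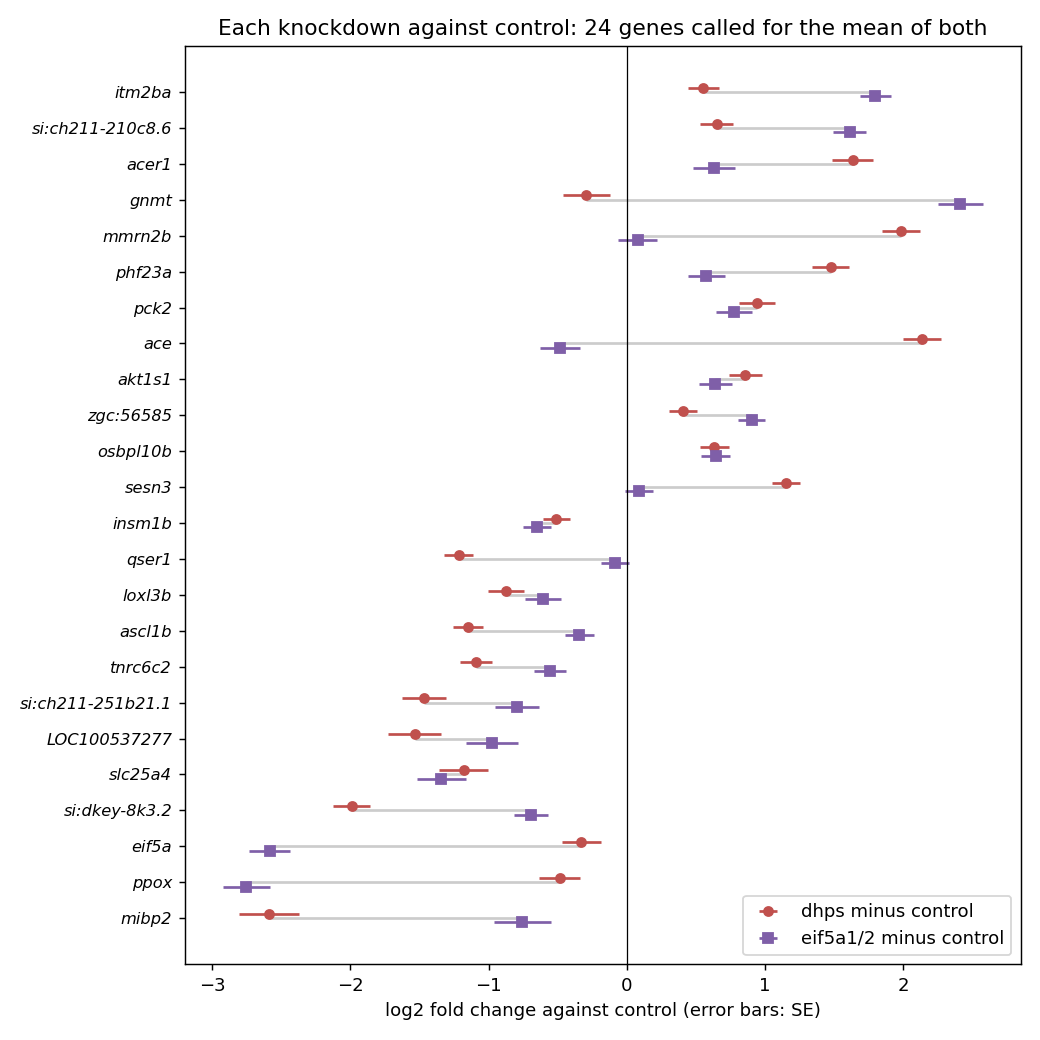
Log2 fold change against control (x axis, ± SE) of dhps (circles) and eif5a1/2 embryos (squares) for 24 of the 25 genes that passed for the mean of both; pcdh1a3, with 0 reads in eif5a1/2 embryos, is left out. The symbols lie close together for slc25a4, osbpl10b, insm1b and pck2 and far apart for ppox, eif5a, ace and gnmt, the last pair on opposite sides of 0.

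The number of genes passing also differed widely between the knockdowns, each in its own comparison with control. Against the same 3 controls, 226 genes passed in dhps embryos (1.33%), 107 higher and 119 lower, and 26 passed in eif5a1/2 embryos (0.153%), 11 higher and 15 lower, or 14 in all with the replicate number as a block. There were 7 of the 17031 genes that passed in both, among them slc25a4, lower in both, and itm2ba and si:ch211-210c8.6, higher in both. Between eif5a1/2 and dhps embryos 311 genes passed (1.83%), and for 231 of these the log2 fold changes against control had opposite signs. Those genes were selected for a difference between the knockdowns, which itself favours opposite signs, so that count is a description only. Of the 226 genes that passed in dhps embryos, 72 had the opposite sign in eif5a1/2 embryos. Across all genes tested the sign was negative in both knockdowns for 5941, positive in both for 6321 and opposite for 4769. Both comparisons share the 3 control libraries, so equal signs are not independent. The counts moved with single libraries: the 226 of dhps embryos became 844 without control replicate 2, 622 without eif5a1/2 replicate 2, and 46 to 126 without control replicate 1 or 3, any dhps replicate or eif5a1/2 replicate 3.

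The targets themselves were a check of the labels, clear for eif5a and weak for dhps. The gene eif5a had 1055, 1084 and 1116 CPM in dhps embryos and 238, 213 and 229 CPM in eif5a1/2 embryos, against 1467, 1168 and 1454 CPM in control embryos. It fell by 2.59 in eif5a1/2 embryos (adjusted p = 0.000188, edgeR), against a log2 fold change of −0.33 in dhps embryos, which did not pass (adjusted p = 0.246, edgeR). The dhps transcript had 10.3, 9.60 and 8.27 CPM in dhps embryos and 15.16, 15.5 and 14.1 CPM in eif5a1/2 embryos, against 13, 14.7 and 15.7 CPM in control embryos. It fell by 0.62 in dhps embryos, close to the threshold (adjusted p = 0.0485, edgeR, or 0.0508 with a robust estimate of the spread), and had 0.04 in eif5a1/2 embryos. In the deposited TPM the dhps transcript was not lower, with 6.83, 5.60 and 5.01 in dhps embryos against 4.69, 8.34 and 4.93 in control embryos. In TPM eif5a had 106 to 194 in eif5a1/2 embryos and 819 to 918 in dhps embryos, against 573 to 859 in control embryos. Its fall in eif5a1/2 embryos thus held in TPM, and the −0.33 of dhps embryos did not. A morpholino can block translation without lowering its transcript, so these values need not show the extent of a knockdown.

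The second eIF5A gene, eif5a2, had 415, 369 and 417 CPM in dhps embryos and 147, 283 and 209 CPM in eif5a1/2 embryos, against 252, 368 and 215 CPM in control embryos. The eif5a1/2 libraries overlapped the controls, and the pooled value was 0.14 (adjusted p = 0.845, edgeR). The hydroxylase gene dohh had a pooled value of −0.06, which became 0.21 under library totals alone, and −0.08 in dhps embryos and −0.05 in eif5a1/2 embryos. Polyamine metabolism supplies the spermidine used in hypusination. None of its 18 tested genes passed the pooled test or lay wholly on one side of the controls, where 2.17% of all genes were above and 2.83% below. Their median log2 fold change was 0.06 against 0.01 for all genes tested.

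Gene lists were then described by the median over members and by the number with all 6 knockdown libraries on one side of the controls. Of 89 tested neuronal genes, 20 were below all controls in all 6 libraries (22.5%, against 2.83% of all genes) and 0 were above. At an unadjusted p under 0.05, 26 were lower (29.2%, against 5.77% of all genes) and 0 higher (against 4.99%). None passed after adjustment with edgeR, and DESeq2 passed 4, all lower, where it passed 72 lower among all 17031 genes. The log2 fold change was negative in both knockdowns for 58 of the 89 genes, and the median was −0.19 in dhps embryos and −0.31 in eif5a1/2 embryos. By library the median relative to the controls was −0.17, −0.22 and −0.19 in dhps embryos and −0.37, −0.29 and −0.24 in eif5a1/2 embryos, against −0.02, 0.04 and 0.00 in control embryos, so the groups did not overlap. In RNA of whole embryos, fewer cells of a type and less RNA per cell cannot be told apart. Under library totals alone the median was 0.01, because that scaling moves the median of all genes to 0.28. Relative to all genes the list median was then −0.26, and 5 of the 89 genes were below all controls (5.62%), against 0.846% of all genes.

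The 20 neuronal genes cover several kinds of neuron and several functions. Cytoskeletal and growth genes among them were tubb5 (a neuronal beta-tubulin), dpysl3, gap43, stmn2a, stmn2b and the neurofilament genes nefmb and neflb. The tubulin gene tubb5 had 206, 245 and 250 CPM in dhps embryos and 171, 192 and 178 CPM in eif5a1/2 embryos, against 310, 351 and 312 CPM in control embryos. The growth cone regulator dpysl3 had 22.5, 22.6 and 25 CPM in dhps embryos and 22.8, 24.9 and 23.5 CPM in eif5a1/2 embryos, against 31.0, 31.1 and 31.0 CPM in control embryos. In CPM the 2 genes were clear of the controls in every knockdown library, with pooled log2 fold changes of −0.65 for tubb5 and −0.40 for dpysl3. They were not separate under library totals alone or in the deposited TPM. In TPM dpysl3 had 3.87 to 4.43 in dhps embryos and 2.38 to 5.19 in eif5a1/2 embryos, against 2.85 to 5.21 in control embryos. Nor were gap43, nefmb, ache, onecut1, phox2bb, scrt2 and celf4 of this set separate in TPM.

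Transmitter and synapse genes in the same set were ache (acetylcholinesterase), gad2 (glutamate decarboxylase), tac1 (tachykinin precursor) and snap25b. Acetylcholinesterase ache had 9.08, 7.95 and 9.21 CPM in dhps embryos and 7.66, 9.38 and 6.90 CPM in eif5a1/2 embryos, against 11.4, 12 and 12.3 CPM in control embryos. For gad2 the values were 2.08, 1.44 and 1.05 CPM in dhps embryos and 1.70, 2.02 and 1.44 CPM in eif5a1/2 embryos, against 2.57, 2.57 and 2.64 CPM in control embryos. Transcription factor genes of the set were onecut1, phox2bb of autonomic and hindbrain neurons, scrt2, lhx5, tlx2, ebf3a, pou4f1 of sensory neurons and vsx1. Of these lhx5 was lower chiefly in dhps embryos, with 8.34, 8.64 and 8.85 CPM there and 15.8, 10.9 and 15.4 CPM in eif5a1/2 embryos, against 18.7, 17.6 and 17.4 CPM in control embryos. The RNA-binding gene celf4 completed the set, with a pooled log2 fold change of −0.76.

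Neural progenitor and Notch pathway genes showed this in fewer members. Of 88 tested, 8 were below all controls (9.09%, against 2.83% of all genes) and 0 above, and the median was −0.05, with −0.11 in dhps embryos and −0.03 in eif5a1/2 embryos (0.23 pooled under library totals alone). The list went both ways. Of the 88, 39 had a positive pooled value, and 40 were negative and 29 positive in both knockdowns. The 8 below were insm1b, the proneural genes neurog1, ascl1a and ascl1b, the motor neuron and oligodendrocyte factor olig2, the Notch ligand jag1a, the midbrain gene en1b and pax6a. In the deposited TPM none of the 8 was separate from the controls. The gene ascl1a had 12.6, 12.9 and 13.3 CPM in dhps embryos and 15.5, 14.3 and 18.1 CPM in eif5a1/2 embryos, against 24.8, 19.6 and 25.6 CPM in control embryos. For olig2 the values were 6.35, 7.74 and 6.60 CPM in dhps embryos and 11, 8.16 and 10.2 CPM in eif5a1/2 embryos, against 15.16, 11.3 and 16.2 CPM in control embryos. Both fell in dhps embryos (adjusted p = 0.0189 for ascl1a and 0.0254 for olig2, edgeR) and did not pass in eif5a1/2 embryos, and neither passed the test of the difference between knockdowns. Retina and lens genes had 5 of 46 below (10.9%, against 2.83% of all genes) and 0 above, among them mab21l1, mab21l2 and the lens gene lim2.1. The shares of several lists moved with control replicate 2. Without it, 33 of 91 neuronal genes (36.3%), 18 of 46 retina and lens genes (39.1%), 19 of 48 erythrocyte and heme genes (39.6%) and 24 of 88 progenitor genes (27.3%) were below the remaining controls, against 11.8% of all genes. Without control replicate 2, 6 neuronal genes (6.59%) and 9 progenitor genes (10.2%) were above, against 11.4% of all genes. With all 9 libraries, 3 of 48 erythrocyte and heme genes were below (6.25%, against 2.83% of all genes) and 2 above (4.17%, against 2.17%).

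**Figure D3:**
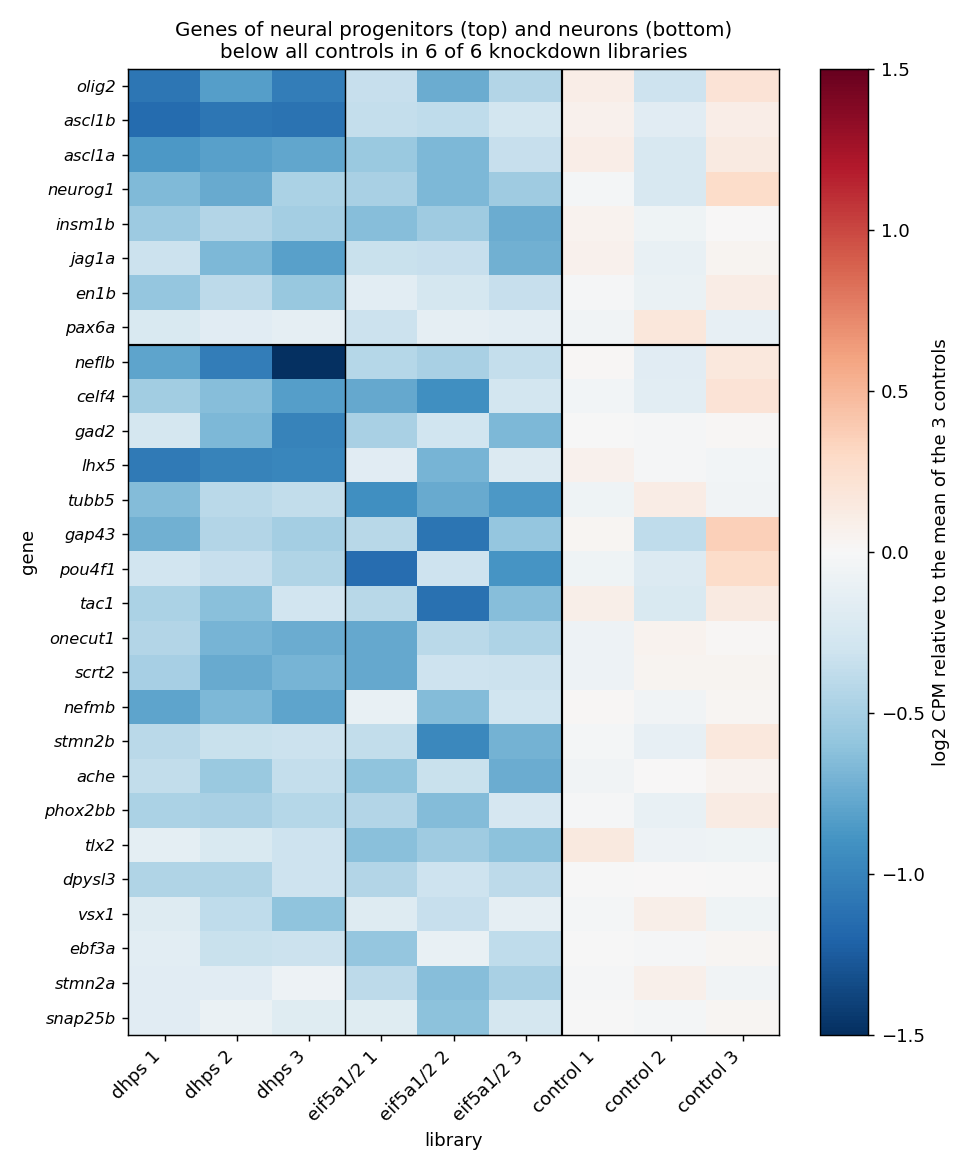
Log2 CPM relative to the mean of the 3 controls (colour) for the 8 neural progenitor genes (top) and 20 neuronal genes (bottom) whose 6 knockdown libraries lay below all controls; columns are the 9 libraries. The genes were selected for this separation; the plot shows its depth in each library, shallow for pax6a (pooled −0.20) and deep for neflb (−1.02).

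Skeletal muscle genes were the other large tissue list with members below the controls in every library. Of 90 tested, 11 were below (12.2%, against 2.83% of all genes) and 0 above, with a median of −0.12 in dhps embryos and −0.22 in eif5a1/2 embryos. Members also went the other way. Of the 90, 32 had a positive pooled value, and 48 were negative and 21 positive in both knockdowns. At an unadjusted p under 0.05, 23 were lower (25.6%, against 5.77% of all genes) and 2 higher (2.22%, against 4.99%). The 11 below all controls were the parvalbumin genes pvalb1, pvalb3 and pvalb4, which encode calcium buffers of fast fibres, the troponin genes tnnt3b and tnni2a.4, the myosin light chain gene mylpfb, the creatine kinase genes ckma and ckmb, and myoz1a, actn3a and cav3. The parvalbumin gene pvalb3 had 20.2, 20.6 and 20.1 CPM in dhps embryos and 20.9, 8.95 and 13.6 CPM in eif5a1/2 embryos, against 37.0, 29.3 and 39.7 CPM in control embryos. The lowest value of the 9 was in eif5a1/2 replicate 2, and the same library was lowest for pvalb1, pvalb4, tnnt3b and tnni2a.4. Control replicate 2 was the lowest control for these 5 genes. In the deposited TPM pvalb1 and pvalb4 were separate from the controls. The genes pvalb3, tnnt3b, tnni2a.4, mylpfb, ckma and myoz1a were not. Under library totals alone the list median was 0.12, which is −0.16 relative to all genes, with 12 members below (13.3%, against 0.846% of all genes) and 1 above. Leaving out a control raised the share below for all genes too. Without control replicate 1, 15 of 90 muscle genes were below (16.7%), against 4.18% of all genes. Without control replicate 2, 25 of 90 were below (27.8%), against 11.8% of all genes.

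Interferon and innate antiviral genes had 7 of 34 tested members below all controls (20.6%, against 2.83% of all genes) and 0 above, with a median of −0.21 in dhps embryos and −0.38 in eif5a1/2 embryos. Named genes among the 7 were the class I histocompatibility gene mhc1zba, the immunoproteasome subunit gene psmb9a, the interferon regulatory factor genes irf9 and irf10 and the cytokine signalling inhibitor socs1a. The gene mhc1zba had 18.3, 16.8 and 18.9 CPM in dhps embryos and 16.4, 13.8 and 17.7 CPM in eif5a1/2 embryos, against 24.8, 27.6 and 22.4 CPM in control embryos. The gene irf10 was low, at 0.984 to 1.54 CPM in the knockdown libraries and 1.79 to 2.73 CPM in controls. In the deposited TPM mhc1zba, irf9 and irf10 were not separate from the controls. There mhc1zba had 6.66 to 8.30 in dhps embryos and 3.97 to 6.65 in eif5a1/2 embryos, against 4.79 to 10.7 in control embryos. Under library totals alone 2 members were below (5.88%, against 0.846% of all genes) and 1 above. Without control replicate 1, 13 of 37 were below (35.1%), against 4.18% of all genes. Without control replicate 2, 8 of 36 were below (22.2%), against 11.8% of all genes, a smaller excess. The list also held members going the other way: of the 34, 10 had a positive pooled value, and 8 were positive in both knockdowns. No gene of the neuronal, progenitor, eye, muscle or interferon lists passed the pooled test with edgeR.

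**Figure D4:**
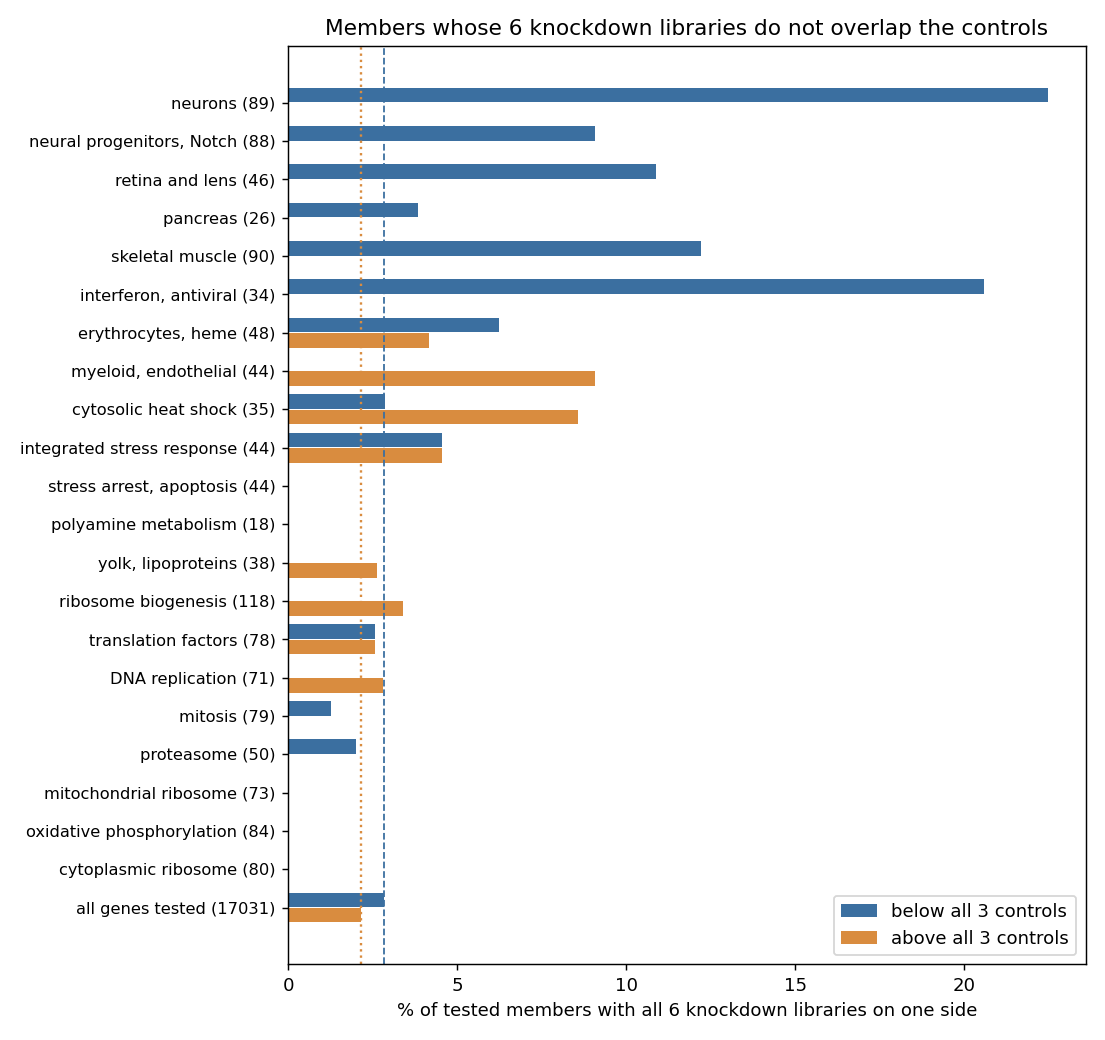
Share of each gene list's tested members (number in brackets) whose 6 knockdown libraries all lay below (blue) or above (orange) the 3 controls; the dashed and dotted lines mark the shares over all genes, 2.83% and 2.17%. Neurons (22.5% below) and interferon genes (20.6% below) extend furthest past the lines in this scaling with all 9 libraries.

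Lists of the stress responses and of translation held genes separate from the controls in small numbers, with shares from below to above those of all genes. The integrated stress response follows stresses such as amino acid shortage. Of its genes, pck2 and the asparagine synthetase gene asns were above all controls, while the regulator atf4b and the glutathione-degrading chac1 were below. The gene atf4b had 163, 171 and 170 CPM in dhps embryos and 143, 134 and 146 CPM in eif5a1/2 embryos, against 227, 207 and 229 CPM in control embryos. The gene asns had 51.7, 54.0 and 52.1 CPM in dhps embryos and 57.6, 50.02 and 50.7 CPM in eif5a1/2 embryos, against 43.5, 37.9 and 41.4 CPM in control embryos. In the deposited TPM pck2 was separate from the controls, and atf4b, asns and chac1 were not. There atf4b had 81.9 to 88.9 in dhps embryos and 41.8 to 77.6 in eif5a1/2 embryos, against 58.9 to 96.2 in control embryos. The list of 44 tested genes had 2 above and 2 below, 4.55% each way, against 2.17% and 2.83% of all genes.

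Cytosolic heat shock genes had 3 of 35 above (8.57%, against 2.17% of all genes), namely hsp90aa1.2, hsp70.3 and the Hsp90 activator ahsa1b. At an unadjusted p under 0.05, 7 of the 35 were higher (20.0%, against 4.99% of all genes) and 0 lower. The list as a whole went both ways. Of the 35, 16 had a negative pooled value, and the median was 0.03, against 0.01 for all genes tested. The 1 member below was cct7, at −0.10, which was 0.18 under library totals alone. Translation factors other than eIF5A had 2 of 78 above and 2 below (2.56% each way), close to the 2.17% and 2.83% of all genes. Above were eif3eb, an eIF3 subunit gene, and etf1b, for the release factor that recognises stop codons; below were eif2s3 and eif1b, both of start site selection. The release factor gene etf1b had 187, 235 and 210 CPM in dhps embryos and 405, 326 and 368 CPM in eif5a1/2 embryos, against 168, 132 and 164 CPM in control embryos. In eif5a1/2 embryos its log2 fold change was 1.25 (adjusted p = 0.0221, edgeR, or 0.0656 with the replicate number as a block) and it was also higher there than in dhps embryos (log2 0.80, adjusted p = 0.0336, edgeR).

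Ribosome biogenesis genes had 4 of 118 above (3.39%, against 2.17% of all genes), among them nat10, nol6 and surf6, and 0 below. The list of stress-induced cell cycle arrest and apoptosis genes had 0 of 44 on either side, against 2.17% of all genes above and 2.83% below. Its median was 0.27 in dhps embryos and −0.0007 in eif5a1/2 embryos. Within it cdkn1a, a cell cycle inhibitor gene, rose by 1.54 in dhps embryos (adjusted p = 0.00215, edgeR) against −0.84 in eif5a1/2 embryos, which did not pass.

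Myeloid and endothelial genes had 4 of 44 above the controls (9.09%, against 2.17% of all genes) and 0 below, and all 4 were of low level. The list went both ways, with 18 of the 44 negative and a median of 0.08. At an unadjusted p under 0.05, 6 were higher (13.6%, against 4.99% of all genes) and 4 lower (9.09%, against 5.77%). The macrophage gene mpeg1.1 had 1.84, 1.28 and 2.2 CPM in dhps embryos and 0.851, 2.2 and 1.82 CPM in eif5a1/2 embryos, against 0.715, 0.682 and 0.699 CPM in control embryos. The leukocyte gene ptprc had a pooled log2 fold change of 1.14, and neither passed (adjusted p = 0.337 for mpeg1.1 and 0.357 for ptprc, edgeR).

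Cytoplasmic ribosomal protein genes and nuclear genes of oxidative phosphorylation varied together between libraries, and whether they separated the knockdowns from the controls depended on 1 control library. All 80 ribosomal protein genes and all 84 oxidative phosphorylation genes tested had a negative pooled value, with medians of −0.57 and −0.38. Of either list 0 members were separate from all 3 controls, against 2.17% of all genes above and 2.83% below. Without control replicate 2, 46 of the 80 (57.5%) and 29 of the 84 (34.5%) were below the remaining controls, against 11.8% of all genes, and the ribosomal protein median was −0.82. The ribosomal protein median relative to the controls was −0.90, −0.68 and −0.78 in dhps embryos and 0.17, −1.07 and −0.25 in eif5a1/2 embryos, against 0.18, −0.58 and 0.40 in control embryos. Control replicate 2 was low and eif5a1/2 replicate 1 was at the level of control replicate 1. Without eif5a1/2 replicate 1 that median was −0.76. With each library's slope on transcript length as a covariate, the median was −0.25 for ribosomal protein genes and −0.12 for oxidative phosphorylation genes.

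**Figure D5:**
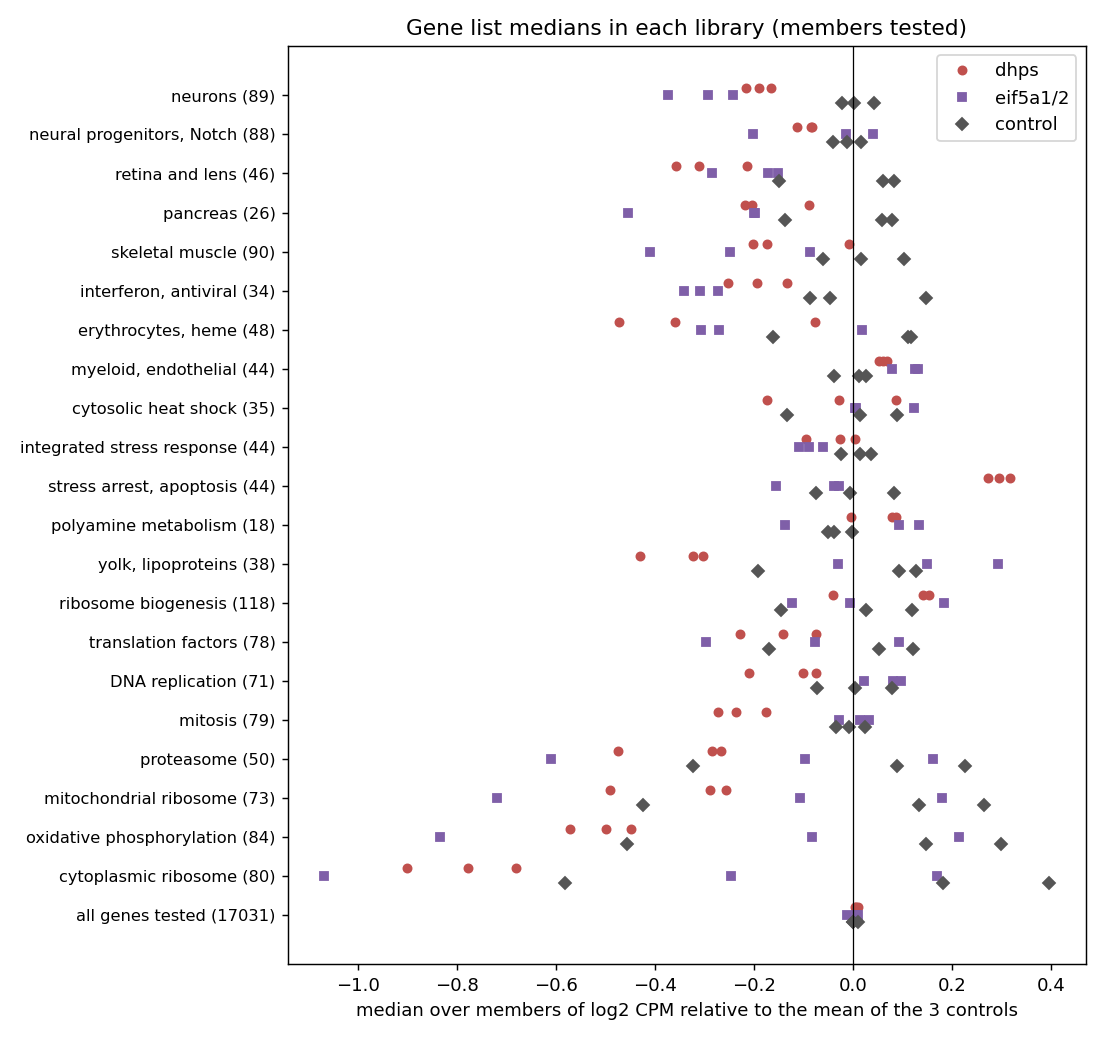
Median over the tested members of log2 CPM relative to the mean of the 3 controls, 1 symbol per library (circles dhps, squares eif5a1/2, diamonds control), for 21 gene lists and all genes. In the neuron list all 6 knockdown libraries lie left of the 3 controls, whereas for cytoplasmic ribosomal proteins the groups overlap, with control replicate 2 at −0.58 and eif5a1/2 replicate 1 at 0.17.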

How the data were processed

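Trizol-chloroform RNA was selected with oligo(dT), fragmented, primed at random and made into circular single-stranded libraries, per the labels' protocols. The genome build was GRCz11, per the submitters' processing notes. The sources used here name no aligner, counter or strand setting. The authors deposited estimated (expected) counts and TPM per gene, and 91.4% to 93.9% of the estimated counts per library were whole within 1e-06. The authors' own fold changes hold no pooled comparison and were not used.

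Counts were rounded, filtered with filterByExpr, scaled by TMM and tested with edgeR 4.0.16 (R 4.3.3), with all 6 knockdown libraries against 3 controls (7 residual degrees of freedom). A 3-group fit (6 residual degrees of freedom) gave each knockdown against control, their difference and their mean. P-values were adjusted over all 17031 genes by Benjamini-Hochberg, and a gene passed at an adjusted p under 0.05. CPM are TMM-scaled, SE is the log2 fold change divided by the root of F, and library values of lists use log2(CPM + 0.5). limma 3.58.1, DESeq2 1.42.0 and sva 3.50.0 served as alternatives. The code was tested on simulated data. Depth was about even, so counting limits precision mainly below a few CPM.

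Genes were named by a rule: the targets, then up to 12 a direction with a given name, a mean CPM of at least 1, the same sign in both knockdowns and all 6 libraries on one side, by smallest p since none passed, then members of lists. The genes, lists and comparison were chosen with earlier results of these data known. Genes given from outside the rule are paralogs, members counted in a list and the 25 that passed for the mean of both, chosen after their values were seen. Same-numbered libraries of eif5a1/2 and control deviated together (correlations 0.403, 0.760 and 0.318), so a block on the number is given there. Some different-numbered pairs did too, eif5a1/2 1 with control 3 at 0.597 and eif5a1/2 3 with control 1 at 0.260. The remaining different-numbered pairs of these groups had −0.387 to −0.679. The correlations therefore do not show that the numbers pair these samples. Same-numbered libraries of dhps and control did not deviate together (−0.337, −0.413 and 0.0988). No genome sequence was used here.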

Additional observations from a re-analysis of the deposited data

Results flagged for a closer look

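The knockdowns differed from each other for 20 of 110 genes examined, which include those named in the report (edgeR, adjusted p under 0.05 over all genes). Over all 17031 genes tested, 311 differed (1.83%). Many of the 110 were chosen by their values, and 16 of the 20 were among the 25 that passed for the mean of both. The 20 of 110 is therefore no rate to set against that of all genes. As log2 of eif5a1/2 minus dhps, the values were lower in eif5a1/2 embryos for pcdh1a3 (−7.90, a fitted value set by 0 reads), ace (−2.62), cdkn1a (−2.38), ppox (−2.27), eif5a (−2.26), mmrn2b (−1.90), sesn3 (−1.07), acer1 (−1.01) and phf23a (−0.90). They were higher in eif5a1/2 embryos for gnmt (2.71), mibp2 (1.83), si:dkey-8k3.2 (1.3), itm2ba (1.24), qser1 (1.13), pck1 (1.01), si:ch211-210c8.6 (0.96), ascl1b (0.80), etf1b (0.80), dhps (0.67) and zgc:56585 (0.50).

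Within the 6 knockdown libraries, a single library stood apart for 9 of the same 110 genes, and in 8 of the 9 it was eif5a1/2 replicate 2, which was low. The gap to the next library was 0.840 of the whole range for mylpfb, 0.778 for lim2.1, 0.746 for tnni2a.4, 0.678 for snap25b, 0.669 for ckma, 0.668 for ckmb, 0.657 for sult3st2 and 0.651 for tnnt3b. For snap91, eif5a1/2 replicate 1 was high, with a gap of 0.743. Chance gives such a gap in about 1 in 20 groups of 6 values from 1 population. The 6 libraries here are 2 knockdowns, and many of the genes were chosen by these same values. That rate therefore does not carry over to these genes.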

How the results depend on the processing

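The pooled count passing stayed at 0 with DESeq2's size factors in edgeR, with library totals alone, under both other filters, with the replicate block, with the length slope and the block, with a robust spread, with limma-voom, and when leaving out each library in turn or control 2 and eif5a1/2 2 together (the robust spread and the last omission were chosen after seeing the data). It was 10 with the slope on transcript length as a covariate (9 with all 6 libraries on one side), 24 with 1 surrogate variable (17), 25 for the mean of both in the 3-group fit (19) and 118 with DESeq2 (113, and 10 of the 118 passed between the knockdowns). The cause of these shifts was not tested.

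For the mean of both, the 25 became 4 under library totals alone, 53 under the stricter filter, 12 with the replicate block, 346 with DESeq2, 4 to 43 leaving out 1 library and 2892 without control 2 and eif5a1/2 2. The 226 genes of dhps embryos became 94 under library totals alone, 902 with DESeq2, 46 to 844 leaving out 1 library and 6295 without those 2 libraries. The 26 of eif5a1/2 embryos became 13, 206, 5 to 20 and 136 in the same order, and 14 with the replicate block. The 311 between eif5a1/2 and dhps embryos became 138, 811, 73 to 873 and 4858, and 188 with the replicate block. Replicate numbers did not pair all samples (dhps with control, correlations −0.337, −0.413 and 0.0988), so the block is no better a design for the pooled comparison.

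Signs turned for genes near 0. The pooled value of eif5a2 was −0.022 to 0.390 leaving out 1 library (negative without control replicate 3), −0.21 with the length slope, −0.27 with slope and block and −0.37 with the surrogate variable. That of dohh was 0.21 under library totals alone, −0.228 to 0.063 leaving out 1 library (positive without control replicate 3 and, at 0.019, without eif5a1/2 replicate 2), 0.13 with the length slope, 0.099 with slope and block and 0.20 with the surrogate variable. Under library totals alone, which moves the median of all genes to 0.28, foxm1 was 0.0099, f13a1b 0.035, pax6a 0.053, onecut3a 0.075 and cct7 0.18. With 3 libraries a group, genes of a few CPM are the least precise.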
